A study of Mus musculus with 18 samples.

Results

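Described here are 8 microRNAs (miRNAs) known for high levels in mature neurons, mmu-miR-128-3p, mmu-miR-137-3p, mmu-miR-138-5p, mmu-miR-129-5p, mmu-miR-153-3p, mmu-miR-218-5p, mmu-miR-132-3p and mmu-miR-212-3p (written without the prefix mmu for mouse from here on). They were chosen by name among 1966 mouse miRNAs, with earlier results of these data known, and all 8 were found. Small RNA libraries had been sequenced from 18 mouse tissues. The adrenal gland group (AG, n = 3) came from wildtype mice whose genotype is labelled CRE -. The R26 IGF2BP1 tumors (TI, n = 7) carried the RNA-binding protein IGF2BP1 as a transgene and were CRE +, 6 of them IGF2BP1 +/+ and 1 IGF2BP1 +/-. The R26 IGF2BP1/MYCN tumors (TIM, n = 8), labelled IMP1/MYCN, CRE +, carried IGF2BP1 and a transgene of the transcription factor MYCN (IMP1 is another name of IGF2BP1). In genotyping by the study these mice had no wildtype Rosa26 allele, so each transgene took 1 of the 2 alleles, and TIM has a single copy of the IGF2BP1 transgene where the IGF2BP1 +/+ tumors have 2. MYCN and IGF2BP1 copy number therefore cannot be told apart in any comparison of TIM with TI. The source was labelled tumor for 6 TI and 5 TIM samples, tumor adrenal gland for 1 TI and 2 TIM samples and tumor spine for 1 TIM sample. Both transgenes sat at the Rosa26 locus behind a stop cassette that an iCre driven by Dbh, a gene of noradrenergic cells, removes. The IGF2BP1 transgene lacks the 3' UTR of its gene. The adrenal gland is a mixture of steroid-producing cortex and chromaffin medulla, so that AG is not a pure counterpart of the cells in which the transgenes were switched on. No ages were given in the labels. Per the paper, IGF2BP1/MYCN mice had a shorter median survival than homozygous IGF2BP1 mice. Age and time to tumor therefore cannot be told apart from genotype in TIM against TI either. No library of a MYCN transgene without IGF2BP1 was analysed here.

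miRNAs are short RNAs cut from hairpin precursors, and each hairpin can give a 5p and a 3p arm. A mature miRNA guides Argonaute proteins to mRNAs that pair with its seed, bases 2 to 8, and lowers their translation and stability. Neuron-enriched miRNAs accumulate as neural precursors leave the cell cycle and mature, and neuroblastoma arises from the sympatho-adrenal lineage, whose normal products are sympathetic neurons and chromaffin cells.

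The mature sequences show how the 8 miRNAs relate to each other. They are printed 5′ to 3′ as RefSeq gives them for GRCm38.p6, in lower case with the seed in capitals.
miR-218-5p: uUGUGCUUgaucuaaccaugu
miR-128-3p: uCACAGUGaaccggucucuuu
miR-137-3p: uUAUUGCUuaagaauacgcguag
miR-138-5p: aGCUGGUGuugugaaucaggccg
miR-153-3p: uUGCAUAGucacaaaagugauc
miR-129-5p: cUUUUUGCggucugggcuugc
miR-132-3p: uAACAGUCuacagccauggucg
miR-212-3p: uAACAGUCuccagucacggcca

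Seeds differed among all members but one pair. miR-132-3p and miR-212-3p share the seed AACAGUC, and their hairpins lie 203 bases apart on the plus strand of chromosome 11, Mir212 at chr11:75173388-75173478 and Mir132 at chr11:75173682-75173747, both within an exon of the long non-coding RNA 1700016P03Rik. The seed UGUGCUU of miR-218-5p is also that of miR-7002-3p, which reached at most 0.0893 CPM, reads scaled to a fixed total per library, in any library.

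Of the 8 mature miRNAs, 4 (miR-218-5p, miR-128-3p, miR-138-5p and miR-129-5p) can each come from 2 hairpins on different chromosomes, and their reads cannot be assigned to one of them. How reads that match both hairpins were counted is not given in the sources used here, and the levels of these 4, their ranks and their shares of a sum depend on it. Mir218-1 (chr5:48223942-48224051) and Mir218-2 (chr11:35616816-35616925) lie in introns of the axon guidance genes Slit2 and Slit3. Mir128-1 (chr1:128202361-128202430) lies in an intron of R3hdm1, and Mir128-2 (chr9:112118636-112118711) in an intron of Arpp21, which encodes a phosphoprotein of striatal neurons. Mir138-1 (chr9:122682876-122682974) and Mir138-2 (chr8:94324311-94324381) lie in exons of long non-coding RNAs, as does Mir129-1 (chr6:29022619-29022691). Mir129-2 (chr2:94241364-94241453) lies in an intron of Mir670hg and is overlapped on the other strand by Mir129b, whose arms reached at most 0.0673 CPM. Mir137 (chr3:118433857-118433929) lies in an exon of the long non-coding RNA Gm26871, and Mir153 (chr12:117250817-117250885) in an intron of Ptprn2, which encodes a protein of neuroendocrine secretory granules. Hairpin positions are those of GRCm38.p6. Hosts on the same strand were taken from GENCODE vM39.

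The other arms differ between the paralogous hairpins and were counted under separate names. Those of miR-218 are nearly the same sequence with offset ends. Their assignment to a hairpin depends on how close matches were treated, which is not given in the sources used here. The other arms are printed for miR-218, on which a result below turns, again with bases 2 to 8 in capitals.
miR-218-1-3p: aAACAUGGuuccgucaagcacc
miR-218-2-3p: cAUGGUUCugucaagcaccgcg

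Each library held between 11641696 and 23435621 reads on miRNAs. For a count of 0, 3 reads were taken as an upper limit, which is not a maximum, and were worth 0.101 to 0.272 CPM. These limits cover counting error only. The share of reads taken by miR-148a-3p went from 2.29% to 61.9% between libraries, so that scaling matters (values are CPM scaled by the trimmed mean of M-values, TMM). Among the libraries, 3 stood apart. AG library 1 had lower neuroendocrine miRNAs than the other 2 AG libraries (miR-375-3p, which marks endocrine cells, at 8915 against 26553 and 30587 CPM) and higher epithelial ones (miR-200a-3p at 148.2 against 21.8 and 21.2 CPM, miR-200b-3p at 217.9 against 26.0 and 21.8 CPM). TI library 5 had the lowest miR-148a-3p share. TIM library 1 held the muscle miRNA miR-1a-3p at 22257 CPM, against 74.5 to 163 in the other TIM libraries. Library numbers follow the order of the columns and do not identify a mouse, a tumor site or the heterozygous tumor.

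All 8 neuron-enriched miRNAs had a higher mean in both tumor types than in the adrenal gland, but only some of them passed the test. In TI, 4 of 8 passed as higher than in AG (miR-218-5p, miR-138-5p, miR-137-3p and miR-153-3p) and 0 passed as lower, where 26.4% of all 726 tested miRNAs passed as higher and 29.3% as lower. In TIM, again 4 of 8 passed as higher (miR-218-5p, miR-138-5p, miR-128-3p and miR-137-3p) and 0 as lower, against 25.5% and 25.9% of all. The median log2 fold change of the 8 was 1.53 in TI and 1.23 in TIM, beside medians of -0.01 and 0.18 over all tested miRNAs. Fold changes are on the log2(CPM + 1) scale, which understates changes of scarce miRNAs, and adjusted p-values are Benjamini-Hochberg values of limma over all 726. Both contrasts use the same 3 AG libraries and so are not independent of each other.

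In TIM compared with TI, 0 of 8 passed in limma, against 3.44% of all miRNAs as higher and 1.79% as lower. The unadjusted limma p there was 0.0132 for miR-128-3p, 0.0211 for miR-153-3p and above 0.05 for the other members. The share of all miRNAs with so low an unadjusted p is not given here. With edgeR on the recovered reads 0 of 8 passed, beside 0.413% of all miRNAs, and with DESeq2 1 passed, miR-128-3p, beside 16.9% of all. All 8 exceeded 1 CPM in each of the 18 libraries, so none was lost to the filter on low values. Without AG library 1, the count fell to 2 of 8 in TI (miR-218-5p and miR-137-3p) and to 2 of 8 in TIM (miR-218-5p and miR-128-3p), and both counts were the same without all 3 libraries that stood apart.

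**Figure D1:**
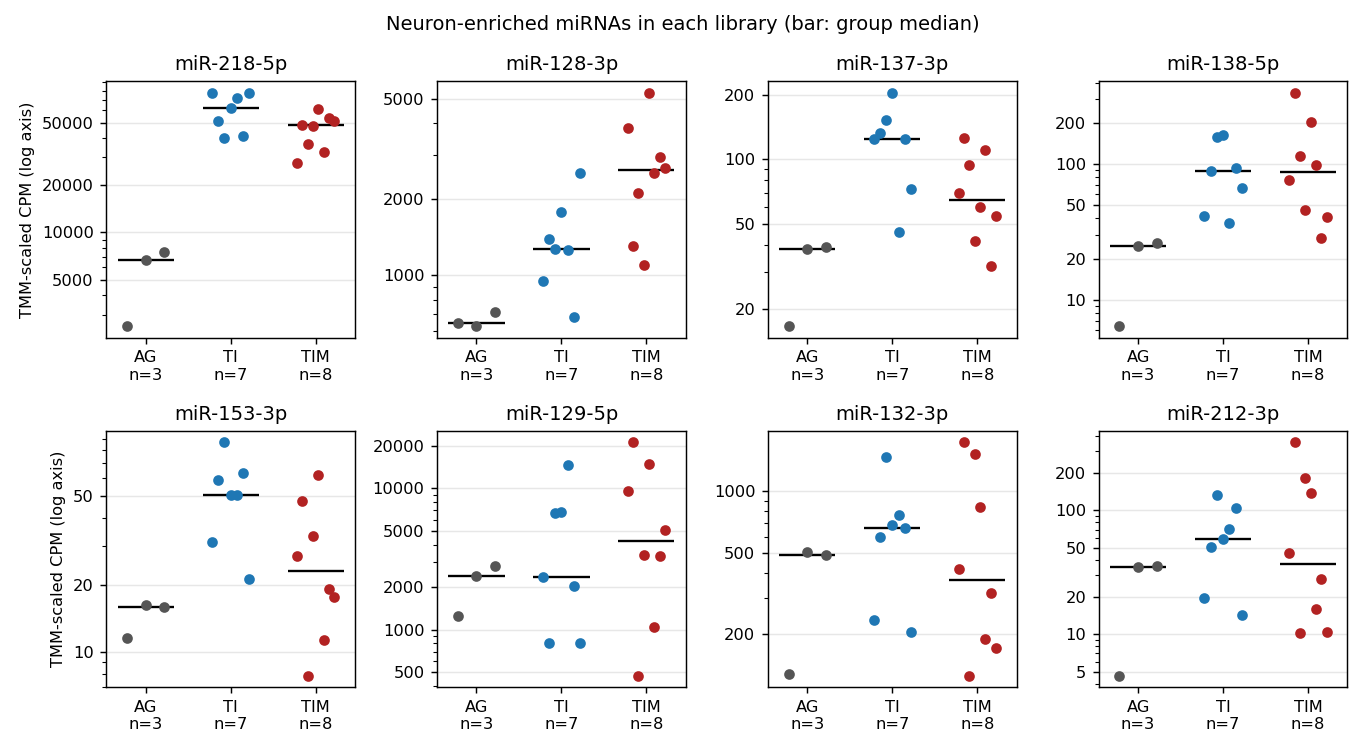
TMM-scaled CPM (log axis) of the 8 neuron-enriched miRNAs in each library of the adrenal glands (AG, n = 3), R26 IGF2BP1 tumors (TI, n = 7) and R26 IGF2BP1/MYCN tumors (TIM, n = 8), with 1 point per library and a bar at the group median. All tumor points of miR-218-5p lie at 27453 CPM or above and all AG points at 7540 CPM or below, whereas miR-129-5p, miR-132-3p and miR-212-3p overlap between all groups.

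miR-218-5p, a regulator of motor neuron excitability, was the most abundant member and had the largest change of the 8. It stood at 2535, 6678 and 7540 CPM in the 3 AG libraries. In TI it ranged from 39876 through a median of 62170 to 77478 CPM, and in TIM from 27453 through 48025 to 61319 CPM. Every tumor library was thus several times above every AG library. Ranked by CPM within a library, it moved from place 28 to 41 in AG to place 2 to 6 in TI and 3 to 5 in TIM. The log2 fold change was 3.53 (SE 0.35) in TI and 3.11 (SE 0.34) in TIM, or 11.5-fold and 8.63-fold (limma adjusted p = 2.73e-07 and 1.01e-06).

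Of all miRNA reads, miR-218-5p alone took 0.235% to 0.708% in AG, 3.13% to 6.34% in TI and 3.28% to 6.58% in TIM. All 8 members together took 0.426% to 1.10%, 3.92% to 7.82% and 4.77% to 9.66%. Most of the summed level of the members was therefore one miRNA: its share of that sum was 55.2% to 64.6% in AG, 80.0% to 95.4% in TI and 65.9% to 92.5% in TIM. TI and TIM overlapped widely, with a TIM to TI log2 fold change of -0.42 (95% interval -0.97 to 0.13, limma adjusted p = 0.353). The call in both tumor types held without AG library 1, where the log2 fold changes were 3.03 and 2.61. In bulk tissue, more cells of a type and more of a miRNA per cell cannot be told apart, nor can fewer cells and less per cell. This holds here as in all results that follow.

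miR-128-3p, which restrains neuronal excitability, was highest in TIM. The AG libraries lay close together at 644, 629 and 718 CPM. TI ran from 682 through 1272 to 2556 CPM and TIM from 1097 through 2608 to 5298 CPM. All 8 TIM libraries exceeded all AG libraries, and 6 of 7 TI libraries did. The log2 fold change over AG was 1.88 (SE 0.43) in TIM (limma adjusted p = 0.00148) and 0.98 (SE 0.43) in TI, which did not pass (limma adjusted p = 0.0620). The TI value passed in edgeR, DESeq2 and 4 other settings, with adjusted p-values between 0.00437 and 0.147 over all alternatives. TIM exceeded TI by 0.89 (SE 0.33, 95% interval 0.21 to 1.58) with a limma adjusted p of 0.0971. AG library 1 was not low for this miRNA, the sole member of which that can be said.

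**Figure D2:**
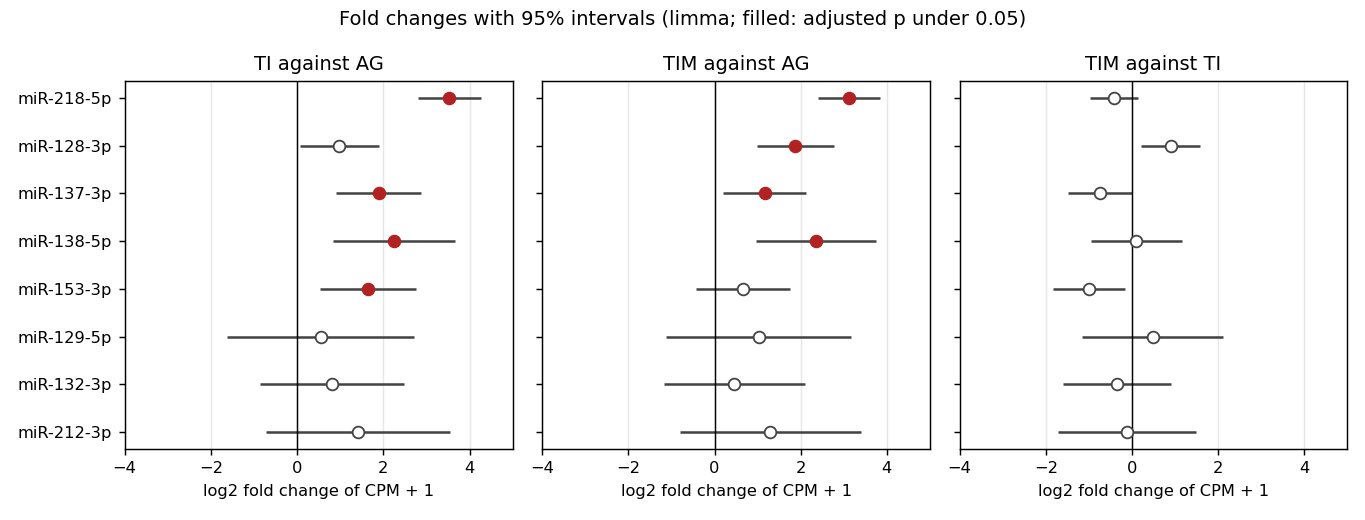
Log2 fold changes of CPM + 1 for each of the 8 miRNAs in TI against AG, TIM against AG and TIM against TI (limma, all 18 libraries in 1 model), with lines for the 95% intervals and filled points for adjusted p-values under 0.05. miR-218-5p stands at 3.53 and 3.11 over AG with the narrowest intervals, and no point of TIM against TI is filled.

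The synaptic miRNAs miR-137-3p and miR-138-5p followed, at levels far below miR-218-5p. miR-137-3p, whose locus is associated with schizophrenia in humans, measured 16.7, 38.4 and 39.3 CPM in AG. It ran from 46.0 through 125 to 205 CPM in TI and from 31.7 through 65.0 to 126 CPM in TIM. TI did not overlap AG, while 7 of 8 TIM libraries lay above all AG libraries. The log2 fold change was 1.89 (SE 0.47, limma adjusted p = 0.00278) in TI and 1.16 (SE 0.46, limma adjusted p = 0.0436) in TIM. The TIM call was fragile, being lost in 12 of 22 alternatives, with a value of 0.77 and a limma adjusted p of 0.262 without AG library 1. TIM stood below TI by a log2 difference of -0.73 (95% interval -1.47 to 0.01, limma adjusted p = 0.225), so the order TI, TIM, AG by group median was not resolved between the tumor types.

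miR-138-5p, which limits the size of dendritic spines, rose in both tumor types. Its AG values were 6.38, 24.7 and 26.0 CPM. Values ran from 36.9 through 88.4 to 165 CPM in TI and from 28.6 through 87.8 to 337 CPM in TIM. Neither tumor type overlapped AG, although the lowest TIM library came close. The log2 fold changes were 2.25 (SE 0.68, limma adjusted p = 0.00970) and 2.35 (SE 0.67, limma adjusted p = 0.00741). Without AG library 1 they were 1.63 and 1.74, and neither passed (limma adjusted p = 0.0910 and 0.0781). The difference between TIM and TI was 0.10 with a 95% interval of -0.96 to 1.17, which leaves room for a difference of either sign.

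miR-153-3p, which targets alpha-synuclein and presynaptic proteins, passed in TI and not in TIM. AG held 11.6, 16.3 and 16.0 CPM. TI ran from 21.2 through 50.6 to 86.7 CPM and TIM from 7.85 through 23.05 to 61.9 CPM. No TI library overlapped AG, but 2 of 8 TIM libraries lay below all AG libraries and 6 lay above them. The log2 fold change was 1.65 (SE 0.53, limma adjusted p = 0.0132) in TI and 0.65 (SE 0.52, limma adjusted p = 0.306) in TIM. The TI call was lost without AG library 1 (1.5, limma adjusted p = 0.0631). TIM was lower than TI by a log2 difference of -1.0 (SE 0.40, 95% interval -1.84 to -0.17), which did not pass over all miRNAs (limma adjusted p = 0.125).

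Over all 726 miRNAs, 22.0% lay above AG without overlap in TI and 21.1% in TIM. Among the members these were 4 of 8 in TI (miR-218-5p, miR-137-3p, miR-138-5p and miR-153-3p) and 3 of 8 in TIM (miR-218-5p, miR-128-3p and miR-138-5p).

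miR-129-5p, which takes part in the downscaling of synapses, was abundant in all tissues and had the widest fold range of the members within TI and within TIM. AG libraries held 1248, 2413 and 2813 CPM. TI spread from 799 through 2342 to 14570 CPM and TIM from 472 through 4218 to 21179 CPM. The tumors thus reached both below and above the whole range of AG, and the highest TIM library was 44.9 times the lowest. The log2 fold changes of 0.54 (SE 1.04) in TI and 1.02 (SE 1.02) in TIM were within this spread (limma adjusted p = 0.688 and 0.414). The TI value was -0.19 without the 3 libraries that stood apart, of which TI library 5 was the highest TI library.

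miR-132-3p and miR-212-3p, which neurons induce through CREB upon activity and which promote dendrite growth, did not pass in either tumor type. miR-132-3p measured 127, 502 and 485 CPM in AG, 205 to 1483 CPM in TI (median 662) and 125 to 1740 CPM in TIM (median 367). For miR-212-3p the AG values were 4.62, 34.8 and 35.5 CPM, with 14.3 to 133 CPM in TI (median 59.2) and 10.1 to 353 CPM in TIM (median 36.8). Both sets of tumors overlapped AG, and AG library 1 lay 3.9-fold and 7.60-fold below the mean of the other 2 AG libraries. The log2 fold changes of miR-132-3p were 0.80 (SE 0.80) in TI and 0.46 (SE 0.78) in TIM (limma adjusted p = 0.414 and 0.647), and without AG library 1 they were 0.15 and -0.20. Those of miR-212-3p were 1.41 (SE 1.02) and 1.29 (SE 1.0; limma adjusted p = 0.250 and 0.289), and 0.52 and 0.40 without that library.

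The levels of this pair moved together from library to library. After each group's mean was subtracted, the log2 levels of miR-132-3p and miR-212-3p had a Pearson correlation of 0.98 over the 15 tumor libraries. For both, the next most alike of 399 miRNAs, those averaging 10 CPM or more, were miR-26b-5p (0.92 and 0.94) and miR-1839-3p (0.90 and 0.94). miR-153-3p ran with the pair too, at 0.90 with each, although its hairpin lies on another chromosome. Its own nearest were miR-376b-5p (0.94), miR-668-3p (0.92) and miR-132-5p (0.91).

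**Figure D3:**
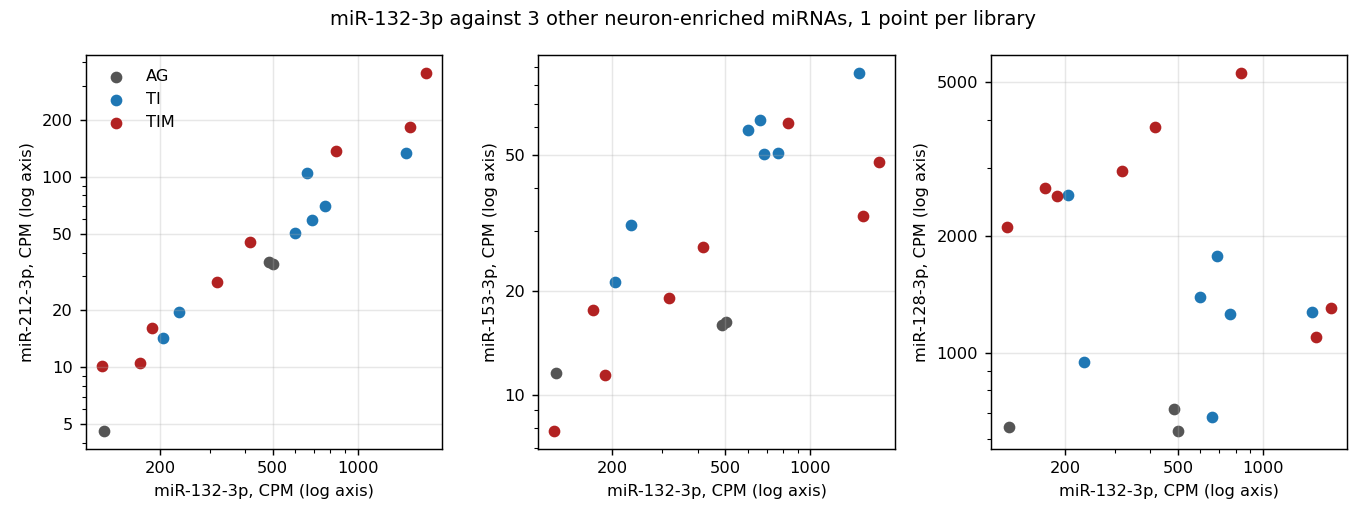
CPM of miR-212-3p, miR-153-3p and miR-128-3p (vertical, log axes) against miR-132-3p (horizontal, log axis), with 1 point per library of AG, TI and TIM. miR-212-3p follows miR-132-3p closely (Pearson correlation 0.98 over 15 tumor libraries after group centring), miR-153-3p follows it at 0.90, and miR-128-3p does not (-0.34).

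miR-129-5p had correlations of 0.75 with miR-153-3p, 0.67 with miR-132-3p and 0.66 with miR-212-3p, though it was nearest to the opposite arms of its hairpins, miR-129-2-3p (0.95) and miR-129-1-3p (0.92), and then to miR-29b-3p (0.88). miR-137-3p and miR-138-5p had a correlation of 0.77 with each other; miR-107-3p (0.81) and miR-193b-3p (0.66) were the other 2 nearest to miR-137-3p, and miR-193b-3p (0.80), miR-124-3p (0.80) and miR-770-5p (0.79) those nearest to miR-138-5p. miR-128-3p was nearest to miR-674-3p (0.84), miR-369-5p (0.81) and miR-340-3p (0.78). miR-218-5p, the member with the largest rise, had its nearest at only 0.69 (miR-411-3p), 0.68 (miR-411-5p) and 0.65 (miR-541-5p), and its correlations with the other 7 members lay between -0.47 and 0.21. Correlations among the 8 thus ran from -0.47 to 0.98. All these values describe 15 libraries that share their scaling factors with every miRNA in them, and none was tested.

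The opposite arms of the same hairpins were read out as well, mostly at lower levels. Of 12 such arms, 3 passed as higher in TI (miR-137-5p, miR-153-5p and miR-218-2-3p), 5 passed as higher in TIM (the same 3, miR-138-2-3p and miR-128-2-5p), and 0 passed as lower in either, beside 26.4% of all miRNAs passing as higher in TI and 25.5% in TIM. In TIM against TI, 0 of 12 passed in limma, beside 3.44% of all miRNAs as higher and 1.79% as lower. The unadjusted limma p was 0.00748 for miR-128-2-5p, 0.0348 for miR-138-2-3p, 0.0123 for miR-218-1-3p and above 0.05 for the other arms. Again the share of all miRNAs with so low an unadjusted p is not given. The median log2 fold change of the 12 arms was 0.65 in TI and 0.94 in TIM. Of the 12, miR-218-2-3p, miR-138-2-3p, miR-128-2-5p and miR-128-1-5p stayed below 1 CPM in all AG libraries, at most 0.653 CPM. These met the filter on low values through tumor libraries only and could hardly pass as lower than AG. The counts of arms passing are therefore not support for a rise.

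Of the 2 arms of miR-218 that differ between its hairpins, one passed in both tumor types and the other in neither. miR-218-2-3p, from the intron of Slit3, measured 0.185, 0.280 and 0.463 CPM in AG (4, 6 and 10 reads), 7.12 to 16.2 CPM in TI and 3.80 to 20.5 CPM in TIM. It lay above AG in all tumor libraries, with log2 fold changes of 3.24 (SE 0.39) and 2.85 (SE 0.38; limma adjusted p = 2.02e-06 and 7.47e-06). This arm met the filter on low values through tumor libraries only. Its calls and its lack of overlap with AG are therefore description and not support for a rise. miR-218-1-3p, from the intron of Slit2, measured 0.324, 0.793 and 1.76 CPM in AG, 0.321 to 6.69 CPM in TI and 0.228 to 2.05 CPM in TIM, and its log2 fold changes of 0.94 (SE 0.46) and -0.01 (SE 0.45) did not pass (limma adjusted p = 0.0872 and 0.986). In AG the Slit2 arm was thus the more frequent of the pair in each library, with 1.75 to 3.80 reads per read of the Slit3 arm, and in every tumor library it was the rarer, with 0.0276 to 0.623 in TI and 0.0112 to 0.337 in TIM.

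The log2 ratio of miR-218-1-3p to miR-218-2-3p, taken within each library on CPM + 1, averaged 0.52 ± 0.38 over the AG libraries (SD, n = 3). For TI the mean was -1.78 ± 0.91 (SD, n = 7), and for TIM it was -2.34 ± 0.98 (SD, n = 8). The ratio lay below that of all AG libraries in 7 of 7 TI and 8 of 8 TIM libraries. In AG both arms lay near or below the pseudocount of 1 CPM, which pulls the AG ratios toward 0. The exact two-sided permutation p was 0.0167 in TI and 0.0121 in TIM, the smallest that 3 AG libraries allow. Over the 27 tests made on 9 ratios, both had an adjusted p of 0.113 (exact permutation tests, Benjamini-Hochberg). Of these 27 tests, 9 had a p under 0.05 before adjustment and 0 after it. The 27 include the 2 comparisons of the miR-128 arms with AG, which rest on the pseudocount. Of these 2, TIM against AG was among the 9 and TI against AG was not.

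**Figure D4:**
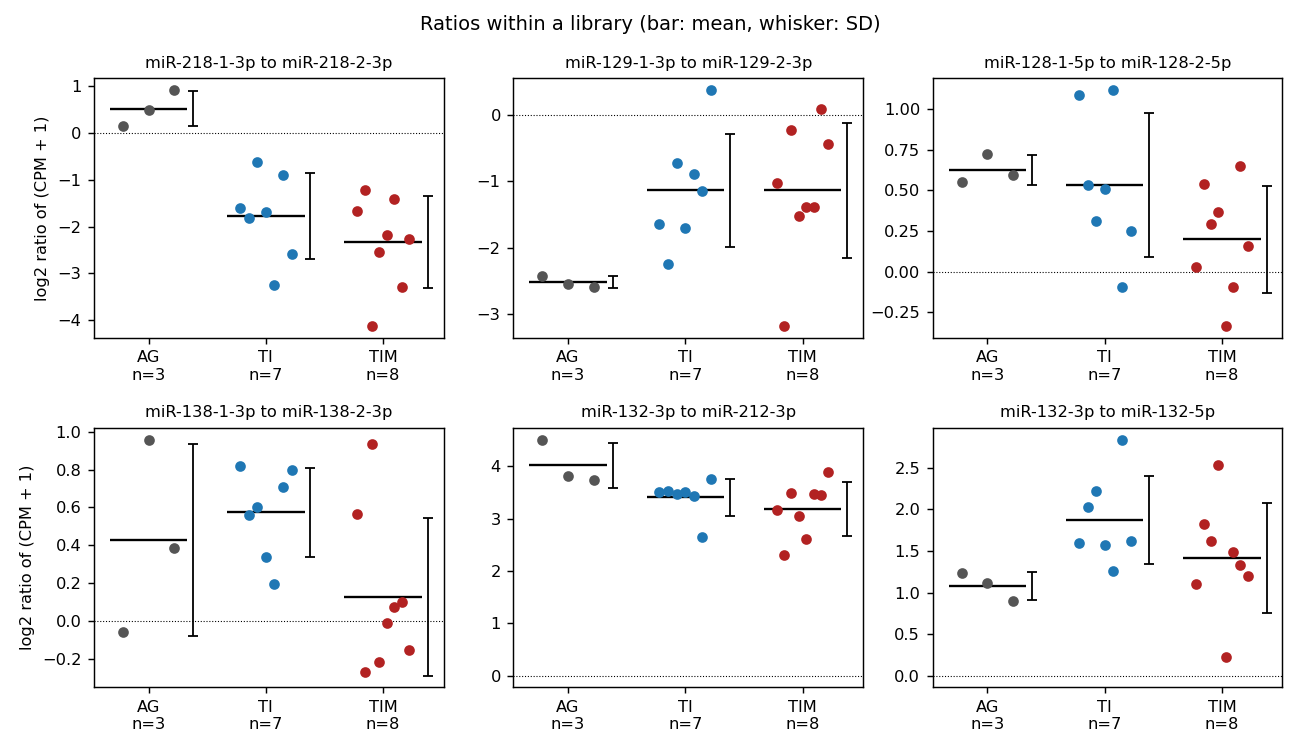
Log2 ratios of CPM + 1 within each library for paralogous or neighbouring hairpins and for the arms of miR-132 in AG (n = 3), TI (n = 7) and TIM (n = 8), with 1 point per library, a bar at the mean and a whisker for the SD. The ratio of miR-218-1-3p to miR-218-2-3p lies above 0 in the 3 AG libraries and below 0 in all tumor libraries. The AG points of miR-128 are set by the pseudocount, miR-128-2-5p having 0 reads there. Those of miR-218 and miR-138 are pulled toward 0 by it.

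For the other duplicated loci the ratios were less distinct. miR-129-1-3p to miR-129-2-3p had a mean log2 ratio of -2.53 ± 0.09 over AG (SD, n = 3), against -1.14 ± 0.85 over TI (SD, n = 7) and -1.14 ± 1.02 over TIM (SD, n = 8). It was above AG in 7 of 7 TI and 7 of 8 TIM libraries (exact two-sided permutation p = 0.0167 and 0.0485, adjusted p = 0.113 and 0.135). Both arms spread widely among tumors, miR-129-2-3p by up to 165-fold in TIM, and neither passed in limma. miR-128-2-5p, from the intron of Arpp21, had 0 reads in each AG library, for which the limit taken is 0.140 CPM, and 0.404 to 1.86 CPM in TIM. The TIM mean was 7.63-fold that limit. This arm also met the filter on low values through tumor libraries only. In TI it ranged from 0.0534 CPM, a single read, to 1.04 CPM, and it did not pass (limma adjusted p = 0.0579).

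miR-128-1-5p, from R3hdm1, stood at 0.462 to 0.653 CPM in AG, 0.352 to 1.95 CPM in TI and 0.715 to 1.997 CPM in TIM, and passed in neither. Its ratio to miR-128-2-5p in AG is set by the pseudocount, since the latter had 0 reads there, and comparisons with AG are not given. The ratio of miR-138-1-3p to miR-138-2-3p was lower in TIM than in TI (0.13 against 0.57, exact two-sided permutation p = 0.0295, adjusted p = 0.135). In AG these arms had 2 to 26 and 3 to 8 reads a library. Levels near the pseudocount of 1 CPM pull these ratios toward 0 as well.

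For Mir137 and Mir153, no difference in the proportion of the arms was detected. The log2 ratio of miR-137-3p to miR-137-5p was 3.70 in AG, 3.94 in TI and 3.79 in TIM, and that of miR-153-3p to miR-153-5p was 2.14, 2.43 and 1.93, with exact permutation p-values of 0.261 or more in all 6 tests. Both arms of Mir137 passed in TI and in TIM. miR-153-5p passed in TIM as well (log2 fold change 0.86, SE 0.34, limma adjusted p = 0.0414), where miR-153-3p did not.

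At the Mir212 and Mir132 locus some ratios had a p under 0.05 before adjustment, and none after it. miR-132-3p exceeded miR-212-3p in every library, by a mean log2 ratio of 4.02 ± 0.42 over AG (SD, n = 3), 3.41 ± 0.35 over TI (SD, n = 7) and 3.18 ± 0.52 over TIM (SD, n = 8; exact two-sided permutation p = 0.0333 and 0.0364 against AG, adjusted p = 0.135 for both). The log2 ratio of the 3p to the 5p arm of Mir132 in TI was 1.87 ± 0.53 (SD, n = 7) against 1.08 ± 0.17 (SD, n = 3) in AG and lay above AG in 7 of 7 TI libraries (exact two-sided permutation p = 0.0167, adjusted p = 0.113). For Mir212 the 5p arm was the more frequent in AG, at a 3p to 5p log2 ratio of -2.15, with -0.51 in TI and -1.27 in TIM (exact permutation p = 0.05 and 0.121). miR-132-5p and miR-212-5p themselves did not pass in either tumor type.

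Other brain-enriched miRNAs had a larger median fold change than these 8. Of 13 listed, 12 could be tested, and 8 passed as higher and 1 as lower in TI, and 9 as higher and 1 as lower in TIM, with median log2 fold changes of 2.36 and 2.41. Their direction is not independent evidence, since the list was drawn up with results of these data known. miR-124-3p, the classical neuronal miRNA, had log2 fold changes of 4.86 (SE 0.82) in TI and 4.93 (SE 0.80) in TIM, and miR-9-5p, which acts in neural progenitors and neurons, of 3.82 (SE 0.41) and 4.16 (SE 0.41). miR-9-3p (3.57 and 3.46), miR-384-3p (3.07 and 3.11), miR-488-3p (2.60 and 2.08), miR-135b-5p (2.58 and 2.50), miR-346-5p (2.14 and 2.76) and miR-149-5p (1.64 and 1.15) also passed as higher in both. miR-139-5p passed as lower in both (-3.38 and -2.62). miR-218-5p had a higher CPM than miR-9-5p in every group, the latter at 362 to 582 CPM in AG, 3748 to 13089 CPM in TI and 4330 to 18823 CPM in TIM.

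Markers of other cell types were measured beside these changes. Endothelial miRNAs were lower in both tumor types in 2 of 2 cases (summed level 38529 to 46092 CPM in AG, 1704 to 6736 in TI, 2428 to 8943 in TIM), and the hepatocyte miRNA miR-122-5p in 1 of 1 (780 to 2592, 4.68 to 48.1 and 4.25 to 82.4 CPM). Stromal and smooth muscle miRNAs were lower in 4 of 5 cases in each tumor type (124324 to 210988, 16134 to 171667 and 16240 to 101974 CPM). These were not the same 4, as miR-145a-5p did not pass in TI and miR-214-3p did not in TIM (limma adjusted p = 0.0802 and 0.0549). Leukocyte miRNAs were lower in 3 of 5 cases in TI and 4 of 5 in TIM (427 to 620, 53.5 to 348 and 69.5 to 215 CPM). Neuroendocrine miRNAs passed in 0 of 3 cases in limma, with summed levels of 49424 to 116747 CPM in AG, 28860 to 271810 in TI and 34541 to 244238 in TIM. Of the 3, miR-375-3p had log2 fold changes of -1.75 in TI and -2.27 in TIM (limma adjusted p = 0.197 and 0.0944). Those of miR-7a-5p, the largest part of the sum, were -0.09 and 0.39, and those of miR-7b-5p -0.29 and -0.03. The part of these cell types in the results was not tested.

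Glial miRNAs passed in 0 of 3 cases and were scarce, at 9.34 to 19.0 CPM in AG, 6.80 to 11.9 in TI and 3.53 to 44.2 in TIM. Erythroid (516 to 1891 CPM in AG, 222 to 3649 in TI, 94.6 to 2056 in TIM), epithelial (50.8 to 384 with library 1 the highest, 15.6 to 1571 and 8.44 to 359 CPM) and striated muscle miRNAs passed in none. The last summed to 175 to 207 CPM in AG, 46.6 to 344 in TI and 77.4 to 166 in TIM other than library 1, which held 22972 CPM. No marker was at 0 in all libraries of a group.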

How the data were processed

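Small RNA was sequenced from 3 adrenal glands, 7 TI and 8 TIM tumors. Per the paper and the submitters' processing notes, the authors aligned reads to mm10 with Bowtie2 2.3.5.1 and used cutadapt 2.8, featureCounts 2.0.0 and edgeR 3.40. The treatment of multiply mapping reads is not given in the sources used here. The deposited signal is CPM per mature miRNA, computed by the authors on library totals multiplied by TMM factors (0.700 to 1.85). The log2 fold changes and p-values of the authors' own comparisons, also deposited, were not used. Columns name a group, not a mouse.

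The value of 1 read was recovered for each library, and 100% of values were whole reads (tolerance 0.01 read). These reads served alternatives only, in which edgeR 4.0.16 called 402, 352 and 3 miRNAs (TI to AG, TIM to AG, TIM to TI). The main test was limma 3.58.1 (lmFit, eBayes with trend, R 4.3.3) on log2(CPM + 1). Tested were the 726 of 1966 miRNAs that reached 1 CPM in 3 libraries or more. A single model held all 18 libraries, p-values were adjusted over all 726 after Benjamini and Hochberg, and the threshold was 0.05. P-values measure the spread between these libraries, since the labels do not say that each tumor came from a separate mouse. The paper counts more tumors than animals for IGF2BP1/MYCN mice, so TIM libraries may share a mouse. Ratios were compared by exact two-sided permutation tests. Scripts were tested on simulated data. The members, the lists and the tests were chosen with earlier results of these data known. Named are the members, their opposite arms, brain-enriched miRNAs passing in both tumor types, and the 3 miRNAs most correlated with each member. Other miRNAs were named after their values were seen. Of 20 mature names, 19 matched RefSeq sequences for GRCm38.p6, the assembly that mm10 names. Hosts came from GENCODE vM39 by gene name and strand. Alternatives were other pseudocounts, filters, scalings, tools and left-out libraries.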

Additional observations from a re-analysis of the deposited data

Results flagged for a closer look

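Among the TI tumors, 1 library lay apart from the rest in the proportion of miR-132-3p to miR-212-3p. TI library 6 had a log2 ratio of 2.65, the next lowest of the 7 TI libraries had 3.42, and this gap made up 0.70 of the group's whole range, above Dixon's 95% limit for 7 samples. The same library held miR-132-3p at 662 CPM, the TI median, and miR-212-3p at 105 CPM, the second highest of TI. Such gaps were looked for in 34 groups of values, of which chance alone would pick out about 1.7.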

How the results depend on the processing

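The calls of miR-218-5p in both tumor types, of miR-137-3p in TI and of miR-128-3p in TIM held under every alternative run. The calls of miR-138-5p in both tumor types and of miR-153-3p in TI were lost only in the 2 settings without AG library 1. Members called against AG numbered 2 in TI and 2 in TIM without the 3 libraries that stood apart (an alternative chosen after seeing the data), and 2 to 5 in TI and 2 to 4 in TIM with 1 library left out, the lowest without AG library 1. In TIM against TI, the count rose from 0 to 1, miR-128-3p, for CPM without the TMM factor and in DESeq2, and was 0 to 1 with 1 library left out (1 without TI library 7 or TIM library 4). Without the TMM factor the median of all miRNAs was -0.15, 0.41 and 0.49 in TI to AG, TIM to AG and TIM to TI, and, when totals excluded miR-148a-3p, 0.34, 0.57 and 0.13. Relative to it, miR-128-3p in TIM against TI was 0.96 without the TMM factor. The share of all calls that were higher moved from 47.4% to 59.3% (TI to AG) and from 49.6% to 65.7% (TIM to AG) without miR-148a-3p, and in TIM to TI from 65.8% to 89.0% without the TMM factor and to 50% with median ratio scaling. The number of miRNAs called in TIM against TI was 38 in limma, 3 in edgeR and 123 in DESeq2. It was 21 with a pseudocount of 5 CPM, 155 without the TMM factor, and 17 with a minimum of 10 CPM.

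Values that changed sign were all among those that had not passed. Without the 3 libraries, miR-129-5p in TI was -0.19, miR-132-3p in TIM -0.19, and miR-138-5p in TIM against TI -0.054. With 1 library left out, miR-132-3p in TIM ranged from -0.20 to 0.79, and in TIM against TI miR-138-5p from -0.17 to 0.33 and miR-212-3p from -0.53 to 0.18. In TIM against TI, CPM without the TMM factor gave 0.14 for miR-218-5p, 0.21 for miR-132-3p and 0.42 for miR-212-3p, and miR-212-3p was 0.50 in edgeR and 0.41 in DESeq2. The cause was not tested. No paired analysis was possible because the numbers in the column names do not match those of the sample titles and identify no sample, so the replicate block was not run. Depth limits the opposite arms with few reads in AG, not the 8 members.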
